A study of Drosophila melanogaster with 3 samples.

Results

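The genes described here are the nuclear-encoded subunits of oxidative phosphorylation in 3 visual projection neuron types of the *Drosophila* brain, LPLC2, LPLC1 and LC4. They were chosen by symbol: genes starting with ND- (complex I), UQCR- (complex III), COX followed by a digit (complex IV) or ATPsyn (complex V). The rule found 74 of 17824 genes: 40 of complex I, 8 of complex III, 11 of complex IV and 15 of complex V. Of these, 58 had enough counts to be tested, among 7011 genes tested in all. The single-cell transcriptomes came from pupae at 48, 72 and 96 h after puparium formation (APF), which cover synapse formation and the time after it. Every animal carried a pair of split-GAL4 hemidrivers for 1 of the types, a histone-GFP reporter under UAS control, and the third chromosome of 1 wild-derived line (a DGRP strain, from the *Drosophila* Genetic Reference Panel) over a laboratory chromosome, so no group is an unmarked wild type. Flies of each cross were pooled over sexes, their brains were dissociated, and GFP-positive cells were sorted. The strains served as biological replicates: 6 crosses for each type at each stage, except LC4 at 72 and 96 h APF, with 4. Within a stage the crosses formed an early and a late collection group, the late one younger on average at dissection.

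Oxidative phosphorylation takes electrons from NADH and succinate through complexes I, II, III and IV of the inner mitochondrial membrane to oxygen, pumps protons on the way, and lets them flow back through complex V, the ATP synthase, to make ATP. Most subunits are encoded in the nucleus and imported, while a core of complexes I, III, IV and V is encoded by the mitochondrial genome. Neurons rely on this pathway for the ATP spent on ion pumping and on release and recycling of synaptic vesicles.

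In the final annotated cells, 5674 neurons gave 50 sums of unique molecular identifiers (UMIs), 1 for each cross, type and stage, with 12 to 364 cells and 253805 to 7041162 UMIs each. Each stage was 1 pooled library, and the 48 h library was sequenced with other read lengths than the other two, so a change with stage and a difference between libraries cannot be told apart, and p-values measure the spread between crosses within libraries. The types of a stage shared a library. Pairs of libraries shared 1 to 5 cell barcodes. Neuronal markers were between 23.6 and 39.1 UMIs per 10000 UMIs in the group means, whereas the summed markers of glia, photoreceptors, muscle, hemocytes and fat body reached at most 0.266. A list of dissociation stress genes, led by the small heat shock genes Hsp26 and Hsp23, summed to between 85.3 and 105 UMIs per 10000 at 48 h APF in the group means and to between 26.7 and 43.7 later, and their part in the changes from 48 to 72 h APF was not tested. Fewer transcripts of a gene and more transcripts of other genes cannot be told apart in such shares.

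The summed level of all members was higher at each later stage in LPLC2, with a smaller difference in LPLC1, and nearly the same at the 3 stages in LC4. All levels are UMIs per 10000 UMIs of the sum (TP10K), which in this 3′ tag assay are not divided by transcript length, and sums over members carry no test. In LPLC2 the 74 genes together were at 172 ± 12.7 TP10K (SD, n = 6 crosses) at 48 h, 278 ± 18.8 at 72 h and 404 ± 28.6 at 96 h APF, the last being 4.04% of all UMIs. In LPLC1 the sums were 220 ± 19.2, 312 ± 15.6 and 351 ± 17.2 TP10K (n = 6). In LC4 they were 263 ± 14.0 (n = 6), 262 ± 9.88 and 260 ± 7.55 TP10K (n = 4). The order of the types thus turned over. At 48 h APF the 6 LPLC2 crosses lay between 147 and 184 TP10K and the 6 LC4 crosses between 240 and 274, without overlap, and at 96 h APF the LPLC2 crosses lay between 360 and 432 and the 4 LC4 crosses between 251 and 269. LPLC1 was between the other types at both ends, and at 72 h APF the 3 types lay closest, with LPLC1 highest. In UMIs per cell, which also vary with depth, the members were at 309 ± 36.2, 551 ± 40.8 and 664 ± 65.8 at the 3 stages in LPLC2. LPLC1 had 457 ± 52.4, 680 ± 44.8 and 624 ± 50.4 UMIs per cell, and LC4 had 657 ± 120.5, 746 ± 57.8 and 556 ± 19.8. On this scale LPLC1 and LC4 were lower at 96 than at 72 h APF.

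**Figure D1:**
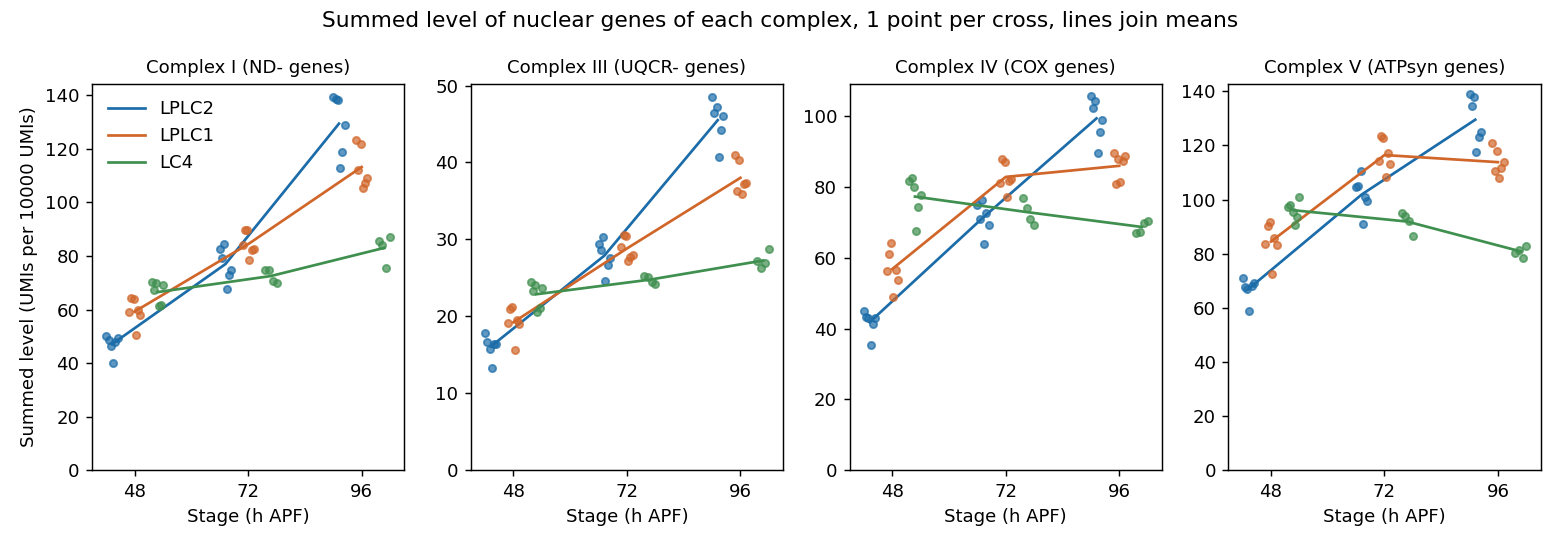
Summed level of the nuclear genes of each complex (UMIs per 10000 UMIs, vertical axis from 0) against stage (h APF), 1 point per cross and lines joining the means of LPLC2, LPLC1 and LC4. In all 4 panels LPLC2 is lowest at 48 h APF and highest at 96 h APF, while LC4 goes from highest to lowest.

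The complexes differed in how far they went. In LPLC2 the ratio of the mean summed level at 96 h to that at 48 h APF was 2.75 for complex I (47.1 to 129 TP10K), 2.83 for complex III (16.1 to 45.5), 2.38 for complex IV (41.8 to 99.3) and 1.94 for complex V (66.9 to 130). In LPLC1 the same ratios were 1.91, 1.98, 1.51 and 1.35, and in LC4 they were 1.249, 1.19, 0.889 and 0.842. In each type, complexes I and III therefore ended higher relative to their 48 h level than complexes IV and V. A few genes carried much of the level. ATPsynC (3R:31216145-31219630, minus strand, BDGP6), the subunit of the membrane ring of the ATP synthase, held 21.6 to 27.4% of the complex V sum in every group. COX7A (3R:8339944-8341043, minus strand), a small subunit of complex IV, held 20.5 to 28.4% of its complex. ND-MLRQ (3L:23339326-23345936, plus strand), whose mammalian counterpart is now assigned to complex IV, held 9.27 to 10.7% of complex I. In complex III the leading gene was UQCR-Q, UQCR-14 or, in LPLC2 at 48 h APF alone, UQCR-11. Of the other abundant members, COX6B and COX4, subunits of complex IV, went from 7.0 ± 0.543 to 18.9 ± 1.3 and from 6.65 ± 0.480 to 17.1 ± 0.767 TP10K in LPLC2 between 48 and 96 h APF, against 12.6 ± 0.767 to 12.7 ± 0.512 and 11.1 ± 0.624 to 9.95 ± 0.327 in LC4. UQCR-Q and UQCR-14, small subunits of complex III, went from 2.98 ± 0.344 to 11.0 ± 0.700 and from 3.20 ± 0.284 to 7.71 ± 0.960 in LPLC2. ND-B22, an accessory subunit of complex I, went from 2.21 ± 0.212 to 7.04 ± 0.477 there and from 3.90 ± 0.290 to 4.28 ± 0.248 in LC4. COX6B overlaps CG18809 on its strand, and ATPsynC and ND-MLRQ overlap small RNAs or mobile elements.

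**Figure D2:**
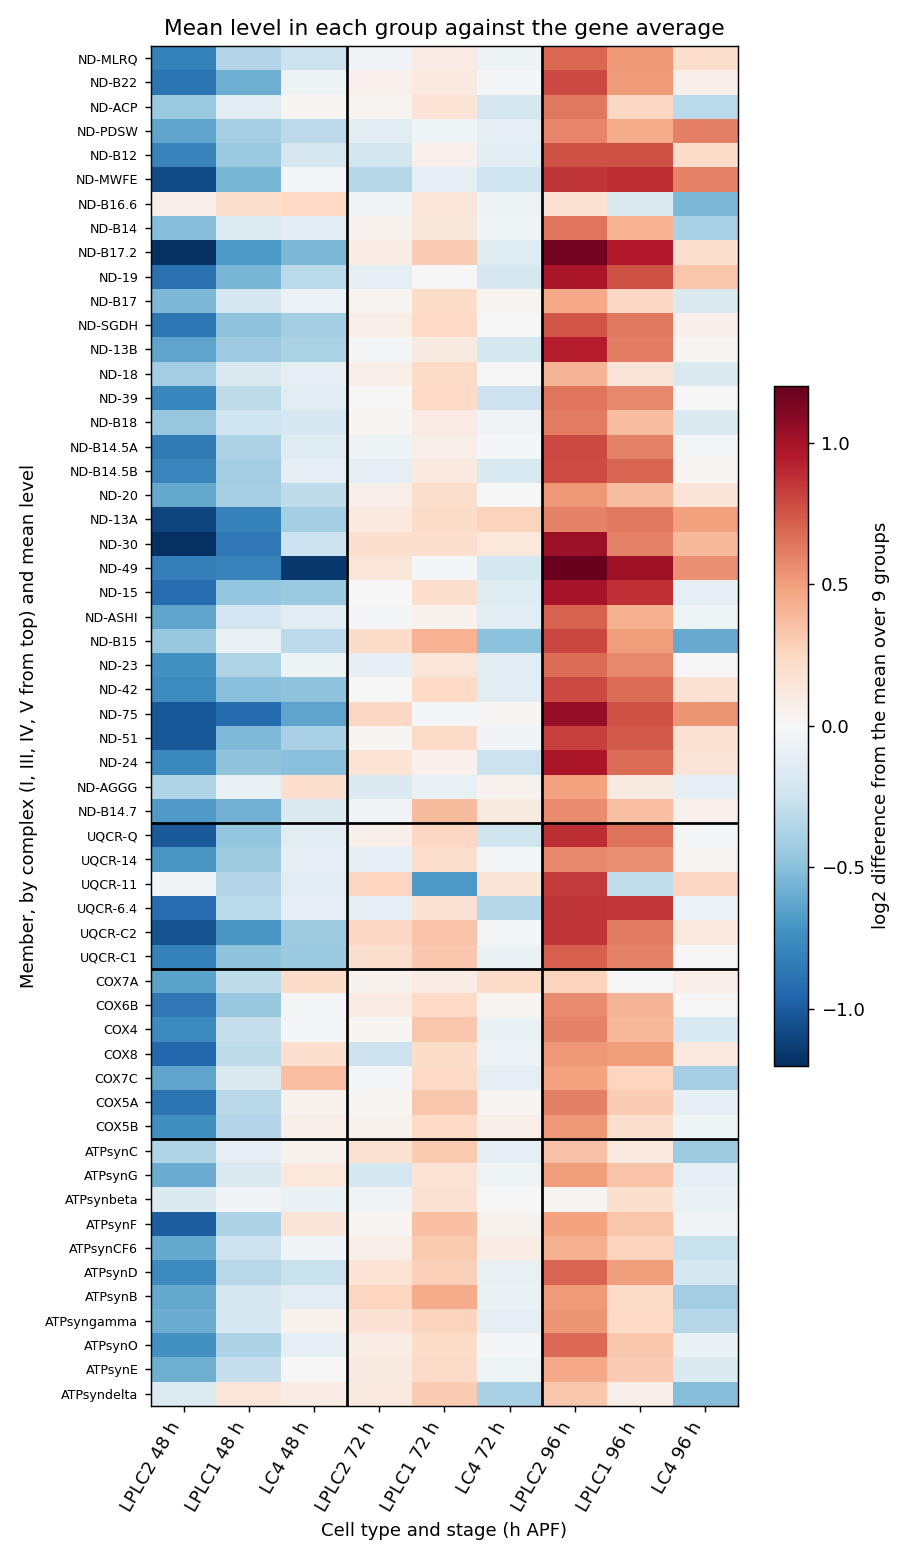
Mean level of 56 tested members in the 9 groups as log2 difference from the gene's own mean over groups (colour, limits at -1.2 and 1.2), genes ordered by complex and mean level; ND-B8 and COX7AL, both near 0, are left out. Most rows run from blue in LPLC2 at 48 h APF to red in LPLC2 at 96 h APF, with UQCR-11, ND-B16.6 and ATPsynbeta standing apart.

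From 48 to 72 h APF, almost every member rose in LPLC2. Per gene, edgeR's quasi-likelihood test with Benjamini-Hochberg adjustment over all genes called 56 of 58 members higher and 0 lower, where 35.6% of all genes tested were called higher and 36.0% lower; the 2 not called were ND-B16.6 and ND-B8. The median log2 fold change of the members was 0.79, that of all genes -0.01, and in 51 of the 58 the 6 crosses of each stage did not overlap, all higher at 72 h APF, where 24.7% of all genes were higher and 28.6% lower without overlap. The largest rise among members whose crosses did not overlap was that of ND-30 (3L:3158485-3159578, minus strand), a core subunit of the arm of complex I that carries electrons from NADH. Its level had a lowest, median and highest cross of 0.614, 0.694 and 0.915 TP10K at 48 h APF and of 1.94, 2.26 and 2.57 at 72 h APF. The log2 fold change was 1.68 ± 0.11 (± SE here and below; adjusted p = 7.64e-19). ND-B17.2, an accessory subunit of complex I, had a lowest, median and highest cross of 0.68, 0.965 and 1.13 at 48 h APF against 2.09, 2.62 and 2.87 (log2 fold change 1.46 ± 0.10, adjusted p = 2.35e-18). UQCR-C2, a core protein of complex III, followed with 1.58, 1.87 and 2.12 against 4.16, 4.46 and 5.13 (1.34 ± 0.08, adjusted p = 4.71e-22). For all 3 genes the lowest cross at 72 h APF was higher than the highest at 48 h APF.

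In the second step, from 72 to 96 h APF, 49 of 58 members rose in LPLC2 and 0 fell (26.5% of all genes higher and 27.4% lower), with a median log2 fold change of 0.42 against 0.00 over all genes. All 6 tested members of complex III and 31 of 33 of complex I were among them, but only 6 of 8 of complex IV and 6 of 11 of complex V. This shortfall depended on the scaling. With total UMIs in place of TMM factors, 56 members were higher and 0 lower. That choice moved the median of all genes by 0.18 on the log2 scale. Setting aside ND-B8, with 1 UMI at 72 h and 9 at 96 h APF, the largest rises were those of ND-MWFE and ND-49. ND-MWFE, a small membrane subunit of complex I, had a lowest, median and highest cross of 1.99, 2.34 and 2.61 TP10K at 72 h APF and of 4.52, 5.39 and 6.23 at 96 h APF (log2 fold change 1.01 ± 0.08, adjusted p = 1.76e-15). ND-49 (4:568296-571554, minus strand), a core subunit next to the quinone site, went from 1.81, 1.92 and 2.36 to 3.93, 4.5 and 5.45 (0.99 ± 0.10, adjusted p = 4.13e-13). COX7A and ATPsynC, the most abundant genes of complexes IV and V, did not pass. COX7A had a log2 fold change of 0.04 ± 0.08 (adjusted p = 0.732) and ATPsynC of -0.02 ± 0.06 (adjusted p = 0.804). This did not hold for all abundant genes of these complexes. For COX6B, COX4 and ATPsynG every cross of the later stage was above every earlier one, while the crosses of ATPsynbeta overlapped. In all, 48 members were called higher in both steps in LPLC2. The share of all genes called higher in both was not counted. ND-MWFE lies within Nrk on the same strand, so reads of the pair can be shared.

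In LPLC1 the first step looked like that of LPLC2 and the second did not. From 48 to 72 h APF, 54 of 58 members rose and 1 fell (30.7% and 32.9% of all genes), with a median log2 fold change of 0.62. ND-30 was again among the largest, with a lowest, median and highest cross of 0.749, 1.12 and 1.3 TP10K at 48 h APF and of 1.958, 2.24 and 2.69 at 72 h APF (1.14 ± 0.12, adjusted p = 1.49e-12), next to ND-13A (1.12 ± 0.09, adjusted p = 1.48e-16), an accessory subunit of complex I, and UQCR-C2 (1.12 ± 0.08, adjusted p = 1.67e-18). In the second step 21 members rose and 13 fell (23.1% and 25.8% of all genes), with a median of 0.08, and the split followed the complexes. Among those called, complex I had 19 higher and 2 lower of 33 and complex III 2 higher and 0 lower of 6, whereas complex IV had 0 higher and 4 lower of 8 and complex V 0 higher and 7 lower of 11. This split depended on the scaling: with total UMIs in place of TMM factors, which moved the median of all genes by 0.20 on the log2 scale, 35 members were higher and 4 lower. By TP10K levels, 24 members were higher and 0 lower at 96 h APF without overlap of crosses (15.4% and 10.8% of all genes). None of the called falls was thus free of overlap.

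The members that rose most in LPLC1 in the second step were ND-49 (0.82 ± 0.10, adjusted p = 8.85e-10), ND-MWFE (0.82 ± 0.09, adjusted p = 8.4e-12) and ND-75 (0.59 ± 0.08, adjusted p = 3.2e-08), the largest core subunit of complex I. ND-75 had a lowest, median and highest cross of 1.26, 1.4 and 1.481 TP10K at 72 h APF and of 2.31, 2.36 and 2.64 at 96 h APF, without overlap. ATPsynC went the other way, with 26.7, 29.6 and 30.6 TP10K against 24.4, 25.4 and 27, ranges that overlapped (log2 fold change -0.39 ± 0.06, adjusted p = 7.19e-08). ND-B16.6, the homologue of the mammalian apoptosis-linked subunit GRIM-19, and ND-18, an accessory subunit, were the 2 complex I members that fell in LPLC1, by 0.51 and 0.27 on the log2 scale (adjusted p = 1.11e-08 and 0.00284). The call on ND-18 was lost under some alternatives, with an adjusted p of up to 0.493.

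**Figure D3:**
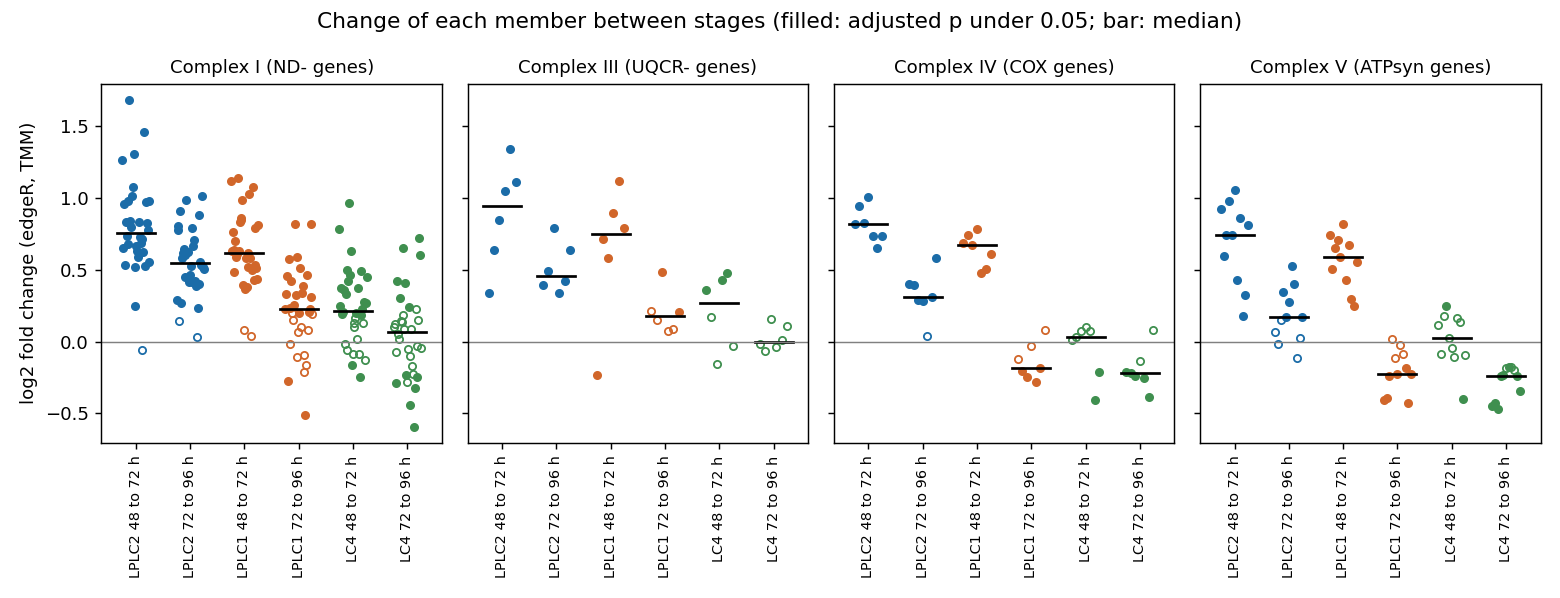
log2 fold change (vertical axis, edgeR with TMM scaling) of each tested member but ND-B8 and COX7AL for the 2 stage steps in each type, by complex; filled points have an adjusted p under 0.05 and bars are medians. In LPLC2 nearly all points lie above 0 in both steps, while in LPLC1 and LC4 complexes IV and V lie mostly below 0 from 72 to 96 h APF.

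LC4 had the fewest calls in each step, counting both directions together, and the most falls. From 48 to 72 h APF, 24 of 58 members rose and 6 fell (29.9% and 31.7% of all genes), with a median log2 fold change of 0.15. Complex I accounted for 20 of the 24 rises. The 6 called lower were ND-ACP, ND-B16.6, COX7C, COX8, ATPsyndelta and ND-B8, of which ND-B8 had 3 UMIs at 48 h APF and 0 at 72 h APF, and ND-ACP (adjusted p = 0.0496) was lost under 7 alternatives. In the second step 8 rose and 19 fell (20.0% and 25.8% of all genes), with a median of -0.07, which is that of all genes. The falls were 8 of the 11 tested members of complex V, 5 of 8 of complex IV and 6 of 33 of complex I, and the 8 rises were all in complex I. Directions here depended on the scaling. With total UMIs the second step had 15 members higher and 8 lower, with the median of all genes moved by 0.12 on the log2 scale, and with DESeq2 size factors 10 and 13. For the first step the same alternatives gave 18 higher and 10 lower, and 18 and 8. By TP10K levels, 10 members were higher and 9 lower without overlap of crosses in the first step (19% and 22.3% of all genes). In the second step 17 were higher and 10 lower without overlap (21.8% and 20.2% of all genes).

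Single genes in LC4 showed both directions. Besides ND-49, the largest rises without overlap were those of ND-13A (0.78 ± 0.10, adjusted p = 8.27e-10) and ND-75 (0.63 ± 0.09, adjusted p = 2.94e-08) in the first step and, apart from ND-B8, ND-MWFE (0.72 ± 0.10, adjusted p = 3.86e-08) in the second. ND-49 ranged from 0.512 to 0.914 TP10K over 6 crosses at 48 h APF, with a median of 0.864. It was at 1.58, 1.7, 1.38 and 1.6 TP10K in strains 399, 535, 799 and 805 at 72 h APF, and at 2.19, 2.61, 2.62 and 3.24 in the same strains at 96 h APF. The 3 stages did not overlap, and both steps passed the test (0.96 ± 0.12, adjusted p = 2.49e-10, and 0.65 ± 0.12, adjusted p = 8.25e-06). COX7C, a small subunit of complex IV, had a lowest, median and highest cross of 8.35, 9.87 and 10.6 TP10K at 48 h APF. It was at 7.09, 7.07, 7.24 and 6.71 in the 4 strains at 72 h APF and at 5.53, 5.85, 6.04 and 5.77 at 96 h APF, again without overlap, and fell by 0.41 and 0.39 on the log2 scale (adjusted p = 1.2e-05 and 0.000177). ND-B16.6 (X:6349016-6350401, minus strand) had a lowest, median and highest cross of 3.15, 3.67 and 3.79, then 2.97, 2.98, 2.9 and 2.77, then 2.02, 2.2, 1.8 and 2.31, and fell by 0.24 and 0.59 on the log2 scale (adjusted p = 0.00312 and 1.7e-08). The call on its first step was lost in 1 alternative (adjusted p = 0.128).

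Of the 19 members lower in LC4 in the second step, 8 were subunits of the ATP synthase. ATPsynC had 22.4, 22.2, 21.9 and 20.8 TP10K at 72 h APF and 17.6, 17.6, 17.5 and 17.3 at 96 h APF (log2 fold change -0.43 ± 0.07, adjusted p = 8.7e-07). ATPsynCF6, a coupling factor of the stalk, had 7.92, 7.84, 7.54 and 6.71 against 6.05, 5.85, 6.09 and 5.46 (-0.47 ± 0.11, adjusted p = 0.000215). ATPsynB, the peripheral stalk subunit b, had 6.74, 6.28, 6.07 and 5.82 against 4.84, 4.719, 4.63 and 5.52 (-0.45 ± 0.09, adjusted p = 2.29e-05). In each of these genes the 4 crosses at 96 h APF were all lower than the 4 at 72 h APF. ATPsyndelta, of the catalytic part's central stalk, fell already in the first step, from a median of 4.24 TP10K to values of 2.99, 3.28, 3.15 and 2.79 (-0.40 ± 0.07, adjusted p = 5.98e-06). The other complex I members that fell in LC4 from 72 to 96 h APF were ND-B14, ND-B17, ND-ACP, ND-B18 and ND-18, by 0.44, 0.33, 0.24, 0.25 and 0.29 on the log2 scale, of which the calls on ND-ACP, ND-B18 and ND-18 were lost under some alternatives.

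Whether a stage change differed between the types was tested for each gene as an interaction. From 48 to 72 h APF it differed for 52 of 58 members (37.5% of all genes), and from 72 to 96 h APF for 47 of 58 (29.3%). The smallest adjusted p-values of the first step were those of COX7C (3.6e-12), ATPsynF (1.98e-11) and COX8 (6.96e-11). COX7C rose by a log2 fold change of 0.66 ± 0.07 in LPLC2 and of 0.50 ± 0.07 in LPLC1 where it fell by 0.41 in LC4. ATPsynF, a membrane subunit of the ATP synthase, had 1.06 ± 0.07, 0.82 ± 0.07 and -0.04 ± 0.08, the last not passing the test. COX8, a small complex IV subunit, changed by 0.73 ± 0.07, 0.61 ± 0.07 and -0.21 ± 0.08. From 72 to 96 h APF the leading genes were ATPsynG (2e-08), ND-15 (7.47e-07) and ND-ACP (1e-06), the mitochondrial acyl carrier protein bound in complex I. ATPsynG, another membrane subunit, had log2 fold changes of 0.52 ± 0.06 in LPLC2, -0.03 ± 0.06 in LPLC1 (not passing) and -0.18 ± 0.07 in LC4. ND-15, whose annotated span overlaps 7 other features on its strand, so that reads may be lost or shared, had 0.81 ± 0.08, 0.46 ± 0.08 and, not passing, -0.07 ± 0.10. ND-ACP had 0.42 ± 0.07, -0.11 ± 0.07 (not passing) and -0.24 ± 0.08. ND-49 rose in all types in both steps, and a difference between types was not called (adjusted p = 0.655 and 0.2). Of the most abundant genes, ATPsynbeta, the catalytic subunit, was not called in either step's test of a difference (adjusted p = 0.421 and 0.801).

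Within a stage, where the types shared a library, the order of the types at 48 h APF was LC4, LPLC1, LPLC2 for 52 of the 58 tested members by group mean. LPLC2 was lower than LC4 for 52 members and higher for 0 (27.1% and 25.1% of all genes), with a median log2 fold change of -0.62. It was lower than LPLC1 for 48 and higher for 1 (19.1% and 14.6%; median -0.35), and LPLC1 was lower than LC4 for 33 and higher for 0 (18.3% and 18.8%; median -0.27). Against LPLC1, ND-B17.2 (-0.64 ± 0.11, adjusted p = 1.68e-06) and COX8 (-0.63 ± 0.07, adjusted p = 2.7e-11) were the lowest in LPLC2. COX8 and ATPsynF led LPLC2 against LC4. COX8 had a lowest, median and highest cross of 3.64, 4.23 and 4.62 TP10K in LPLC2, 5.76, 6.35 and 7.35 in LPLC1 and 8.12, 9.38 and 10.3 in LC4, 3 ranges without overlap (LPLC2 against LC4 -1.19 ± 0.07, adjusted p = 1.73e-21). ATPsynF had 3.75, 4.71 and 5.07 in LPLC2 against 8.98, 10.1 and 11.6 in LC4 (-1.19 ± 0.08, adjusted p = 5.34e-20). In LPLC1 against LC4 the largest differences were those of ND-30 (-0.60 ± 0.12, adjusted p = 6.85e-05) and COX7C (-0.59 ± 0.07, adjusted p = 7.09e-10).

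At 72 h APF the order was in transit. LPLC2 was still lower than LPLC1 for 33 members and higher for 2 (16.8% and 17.7% of all genes; median -0.20), and LPLC1 was now higher than LC4 for 33 and lower for 1 (23.9% and 26.2%; median 0.21). LPLC2 and LC4 differed in either direction for fewer genes, with 13 higher and 4 lower in LPLC2 (28.5% and 30.0%), and both counts were below those shares of all genes. The total of 17 fell to 11, 10, 10 and 9 without strain 399, 535, 799 or 805. ND-B15, an accessory subunit of the membrane arm of complex I, stood out in LC4. It had a lowest, median and highest cross of 1.86, 2.11 and 2.34 TP10K in LPLC2 and of 2.25, 2.44 and 2.57 in LPLC1, against 1.3, 1.26, 1.31 and 1.28 in LC4 (0.65 ± 0.09, adjusted p = 4.35e-08, and 0.88 ± 0.09, adjusted p = 1.85e-11). ATPsyndelta was likewise higher in both other types than in LC4 (0.43 ± 0.07, adjusted p = 1.13e-06, and 0.66 ± 0.07, adjusted p = 5.68e-11). COX8 was still lower in LPLC2, at 6.13, 6.94 and 7.15 against 8.03, 7.53, 7.59 and 7.39 in LC4 (-0.24 ± 0.08, adjusted p = 0.0046), a call lost in 1 alternative (adjusted p = 0.0641), as was COX7A (-0.25 ± 0.09, adjusted p = 0.0148; up to 0.136). In LPLC2 against LPLC1, COX8 (-0.51 ± 0.07, adjusted p = 1.02e-08) and ND-B14.7 (-0.46 ± 0.10, adjusted p = 0.000137) had the lowest ratios, and ND-75 was higher (0.24 ± 0.08, adjusted p = 0.0115; up to 0.0738 in the alternatives).

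At 96 h APF the order of group means was LPLC2, LPLC1, LC4 for 49 of 58 members, and 45 had both this order and the opposite one at 48 h APF. LPLC2 was higher than LC4 for 51 members and lower for 1 (26.1% and 23.5% of all genes; median 0.54), LPLC1 was higher than LC4 for 43 and lower for 3 (18.6% and 19.1%; median 0.39), and LPLC2 was higher than LPLC1 for 24 and lower for 1 (14.6% and 11.0%; median 0.18). Without strain 320 the last total fell from 25 to 13. For this pair the median of all genes was 0.05. With DESeq2 size factors 16 members were higher and 1 lower, and with total UMIs 30 and 0. By TP10K levels, 5 members were higher and 0 lower in LPLC2 than in LPLC1 without overlap of crosses (7.12% and 5.28% of all genes). For LPLC2 against LC4 these counts were 51 and 1 (21.8% and 11.9%). For 48 of 58 members LPLC2 was called lower than LC4 at 48 h APF and higher at 96 h APF. The share of all genes with this pair of calls was not counted. Nor was the share with the orders of group means given here and for 48 h APF. The members lower than in LC4 were ND-B8 in both types, on 44 UMIs in LC4, and in LPLC1 also UQCR-11 and ND-PDSW, an accessory subunit of complex I. ND-B15 differed most in the other direction, with 2.57, 3.27 and 3.5 TP10K in LPLC2 and 2.29, 2.479 and 2.94 in LPLC1 against 1.32, 1.07, 1.16 and 1.23 in LC4 (1.26 ± 0.10, adjusted p = 1.48e-15, and 1.01 ± 0.11, adjusted p = 1.72e-11). ND-15 followed, with 3, 3.79 and 4.22 and with 3.14, 3.44 and 3.7 against 1.76, 1.67, 1.71 and 1.82 in LC4 (0.96 ± 0.09, adjusted p = 3.67e-13, and 0.87 ± 0.10, adjusted p = 3.61e-11). In both genes all LC4 crosses were lower than all others. In LPLC2 against LPLC1, ND-30 was higher (0.40 ± 0.12, adjusted p = 0.00742; up to 0.0612 in the alternatives) and ATPsynbeta lower (-0.19 ± 0.07, adjusted p = 0.0446; up to 0.3).

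**Figure D4:**
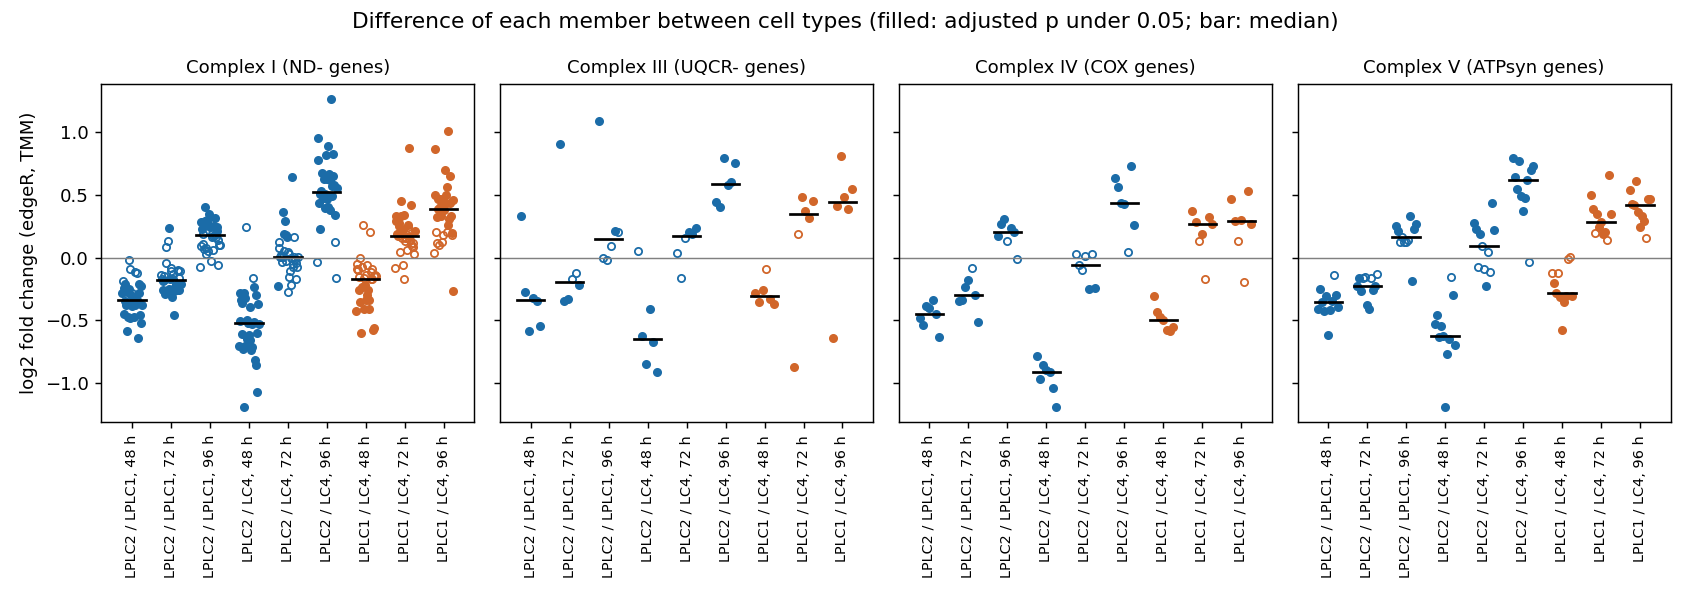
log2 fold change between cell types (vertical axis, edgeR with TMM scaling) of each tested member but ND-B8 and COX7AL at the 3 stages, by complex; filled points have an adjusted p under 0.05 and bars are medians. LPLC2 against LC4 goes from below 0 at 48 h APF through about 0 at 72 h APF to above 0 at 96 h APF.

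Within complex I, the nuclear core subunits, which hold the flavin, the iron-sulphur clusters and the quinone site, were set against the others after their values had been seen, and no test was made. The 7 core genes (ND-75, ND-51, ND-49, ND-30, ND-24, ND-23 and ND-20) were all called higher from 48 to 72 h APF in LPLC2 and LPLC1, and 6 of 7 in LC4. Their median log2 fold change in this step was 1.01, 0.85 and 0.46 in LPLC2, LPLC1 and LC4, against 0.70, 0.56 and 0.19 for the other 26 tested genes. For 96 against 72 h APF the medians were 0.62, 0.32 and 0.15 against 0.52, 0.22 and -0.04, and 0 core genes were called lower in any step.

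UQCR-11 (3L:25120709-25126171, plus strand), the small acidic hinge subunit of complex III, departed from the rest. In LPLC1 it had a lowest, median and highest cross of 2.68, 3.62 and 3.84 TP10K at 48 h APF, 2.58, 2.67 and 2.961 at 72 h APF and 2.64, 3.31 and 4.67 at 96 h APF, and it was the 1 member lower at 72 h APF (-0.24 ± 0.09, adjusted p = 0.0203), in overlapping ranges and with a call lost under 5 alternatives (adjusted p up to 0.244). In LPLC2 it had 3.55, 4.35 and 4.62, then 4.53, 5.33 and 5.67, then 6.97, 7.75 and 8.52. It was the 1 member higher in LPLC2 than in LPLC1 at 48 h APF (0.33 ± 0.09, adjusted p = 0.00218), and the difference was 0.91 ± 0.09 at 72 h APF (adjusted p = 1.46e-12) and 1.09 ± 0.09 at 96 h APF (adjusted p = 2.55e-14), with no overlap at the last 2 stages. It was also lower in LPLC1 than in LC4 at 72 h APF (-0.87 ± 0.10, adjusted p = 5.92e-11) and 96 h APF (-0.64 ± 0.10, adjusted p = 9.31e-07). In LC4 its level was 4.39, 4.9, 5.01 and 5.01 at 72 h APF and 4.38, 5.05, 5.34 and 5.9 at 96 h APF.

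ATPsynbeta varied little. Its group means lay between 8.71 and 11.2 TP10K, and its calls in LPLC2 (0.18 ± 0.07 from 48 to 72 h APF, adjusted p = 0.0206) and LPLC1 (0.29 ± 0.07, adjusted p = 0.000223) rested on overlapping crosses. In contrast, the tested members included 2 genes with very few UMIs. ND-B8 had 65 UMIs in all, of which 44 came from LC4 at 96 h APF, with 6, 17, 5 and 16 in strains 399, 535, 799 and 805, against 0 UMIs in each of these strains at 72 h APF. With 3 counts over the group as the floor, its level was at least 53.0-fold higher at 96 h APF. COX7AL, a paralogue of COX7A, had 225 of its UMIs in strain 535 and 71 in strain 320, against at most 29 in any other strain. Its level in strain 535 was 0.0510, 0.242 and 0.197 TP10K in LC4 at the 3 stages. The 16 members not tested summed to 653 UMIs of 115743358. All but ND-MNLL carry the suffix L of paralogues or are numbered copies, 4 had 0 UMIs, and ND-MNLL, an accessory subunit of complex I with an overlapping gene on its strand, had the most, 313.

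All 74 members matched the annotation by symbol. They were spread over the genome, with 14 on 2L, 14 on 2R, 16 on 3L, 16 on 3R, 12 on X and 2 on chromosome 4, and 14 overlapped another annotated feature on the same strand.

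Genes of the same pathway with other names were counted in the same way. From 48 to 72 h APF, 35.6% of all genes were called higher and 36.0% lower in LPLC2. The shares were 30.7% and 32.9% in LPLC1 and 29.9% and 31.7% in LC4. From 72 to 96 h APF they were 26.5% and 27.4%, 23.1% and 25.8%, and 20.0% and 25.8%. These shares stand beside the counts of all lists below. Of 14 further respiratory chain genes, which include the succinate dehydrogenase subunits of complex II, cytochrome c, the adenine nucleotide carrier and the outer membrane channel, 13 rose and 0 fell in LPLC2 from 48 to 72 h APF and 12 and 0 from 72 to 96 h APF. In LPLC1 the counts were 13 and 0, then 6 and 3, and in LC4 6 and 2, then 4 and 2. sesB, the adenine nucleotide carrier, changed by 1.04 ± 0.07 (adjusted p = 1.77e-20), 0.86 ± 0.07 (4.65e-17) and 0.43 ± 0.07 (1.1e-06) in LPLC2, LPLC1 and LC4 in the first step, and porin, the channel, by 1.08 ± 0.06 (7.68e-22), 0.80 ± 0.06 (1.61e-16) and 0.13 ± 0.07 (0.115). Of 14 genes of the tricarboxylic acid cycle and pyruvate dehydrogenase, 11 rose and 3 fell in LPLC2 in the first step and 10 and 1 in the second, 11 and 3 and then 8 and 2 in LPLC1, and 8 and 3 and then 4 and 2 in LC4. Idh3a, a subunit of isocitrate dehydrogenase, changed by 1.32 ± 0.08, 1.02 ± 0.08 and 0.54 ± 0.09 in the first step, and Mdh2, the mitochondrial malate dehydrogenase, by 0.65 ± 0.07 and 0.43 ± 0.07 in LPLC2 and LPLC1, with -0.13 ± 0.08 in LC4 not passing.

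Glycolysis rose further, in all 3 types. All 12 genes tested rose in LPLC2 from 48 to 72 h APF, with a median log2 fold change of 2.78, 11 rose and 0 fell in LPLC1 (median 1.90), and 9 and 0 in LC4 (median 1.71). In the second step the counts were 9 and 2, 8 and 2, and 7 and 1. Their summed level went from 9.13 ± 0.705 to 41.9 ± 4.34 and 67.7 ± 4.42 TP10K in LPLC2 and from 9.17 ± 0.543 to 26.3 ± 2.12 and 41.4 ± 2.74 in LC4. Eno, the enolase, changed by 2.32 ± 0.10 (adjusted p = 7.66e-28), 1.60 ± 0.09 (3.04e-21) and 1.24 ± 0.11 (3.77e-15) in LPLC2, LPLC1 and LC4 in the first step, and Ald1, the aldolase, by 2.39 ± 0.14, 2.05 ± 0.14 and 1.97 ± 0.16. Of 10 genes of mitochondrial biogenesis, 3 were higher and 3 lower in LPLC2 in the first step, near the shares of all genes (35.6% and 36.0%). Of 8 genes of respiratory chain assembly, 4 were higher and 3 lower. Both sets were mostly higher in LPLC2 in the second step, with 6 and 0 and with 7 and 1 (medians 0.41 and 0.59). In that step 3 biogenesis genes were higher and 0 lower in LPLC1, and likewise in LC4. The assembly genes had 3 higher and 0 lower in LPLC1 and 1 higher and 2 lower in LC4. Marf, the mitofusin, rose in both steps in all types, by 0.81 ± 0.08, 0.84 ± 0.08 and 0.54 ± 0.09 in LPLC2, LPLC1 and LC4 in the first, and Hsp60A, the matrix chaperonin, changed by 0.30 ± 0.09, 0.36 ± 0.09 and -0.33 ± 0.10. Opa1, of inner membrane fusion, rose by 0.30 ± 0.07 and 0.43 ± 0.08 in LPLC2 and LPLC1, with -0.13 ± 0.09 in LC4 not passing, and Hsc70-5, the matrix Hsp70, rose by 0.44 ± 0.08, 0.45 ± 0.08 and 0.72 ± 0.10 in the 3 types.

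The genes of the mitochondrial genome mostly did not follow the nuclear ones. Only in LPLC2 from 72 to 96 h APF were most genes of both sets called higher. From 48 to 72 h APF, 1 of 13 protein-coding mitochondrial genes rose and 7 fell in LPLC2, 3 rose and 4 fell in LPLC1, and all 13 fell in LC4, with a median log2 fold change of -0.90. In the second step 10, 13 and 13 rose, with medians of 0.54, 1.31 and 1.67. Their summed level was 72.7 ± 5.40, 67.7 ± 11.5 and 97.1 ± 12.2 TP10K at the 3 stages in LPLC2, 64.9 ± 3.47, 66.8 ± 19.9 and 152 ± 20.6 in LPLC1, and 71.0 ± 5.51, 36.6 ± 3.56 and 119 ± 25 in LC4. mt:CoI, a core subunit of complex IV, had log2 fold changes of -0.72 ± 0.15 and 1.53 ± 0.16 in LC4 in the 2 steps, and mt:CoIII, another, of -0.62 ± 0.17 and 1.54 ± 0.19. At 96 h APF, where 24 nuclear members were higher in LPLC2 than in LPLC1, 12 of the 13 mitochondrial genes were lower, and 10 of 13 were lower in LPLC2 than in LC4. Of all genes, 11.0% were lower in LPLC2 than in LPLC1 and 23.5% lower than in LC4. The share of mitochondrial RNA also moves with damage to cells, and its part in these values was not tested.

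**Figure D5:**
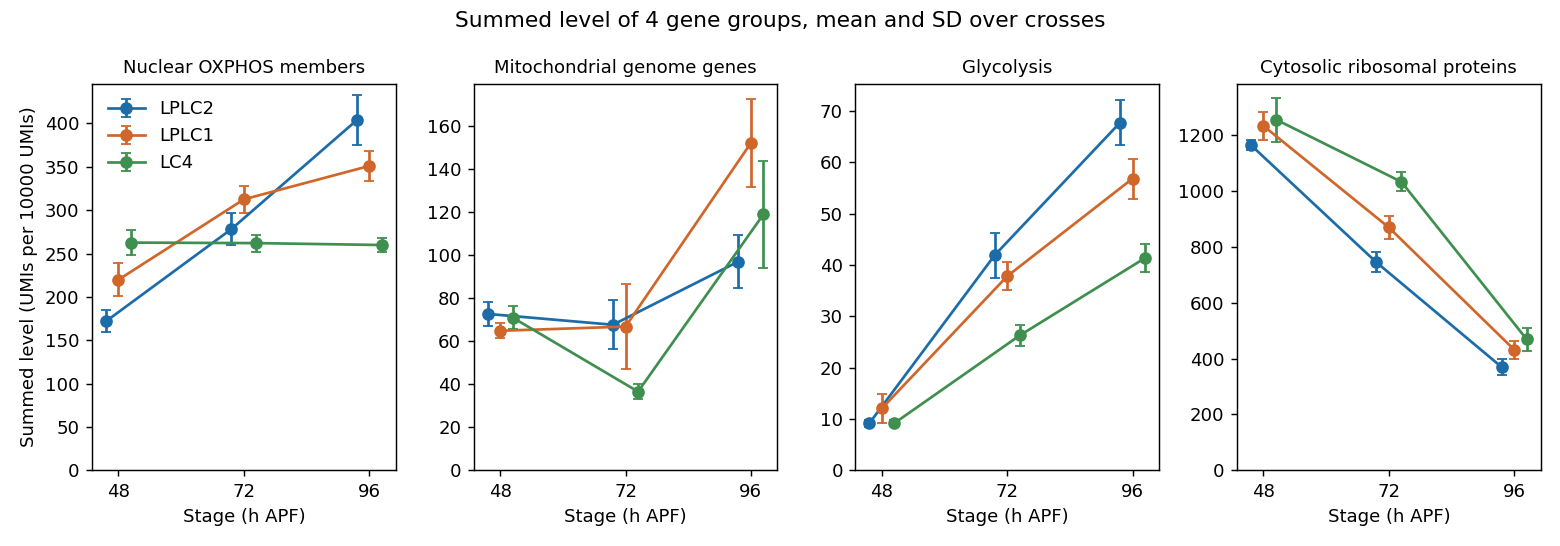
Summed level (UMIs per 10000 UMIs, vertical axes from 0 with a scale of their own) of 4 gene groups against stage (h APF), mean and SD over crosses for LPLC2, LPLC1 and LC4. Nuclear members diverge by type, mitochondrial genome genes are lowest in LC4 at 72 h APF, glycolysis rises in all types and ribosomal protein genes fall in all types.

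Cytosolic ribosomal protein genes, another large set of short and abundant transcripts, fell in every type. Of 86 tested, 74 fell and 4 rose in LPLC2 from 48 to 72 h APF and 82 fell and 1 rose from 72 to 96 h APF, and in LC4 46 and 9, then 82 and 0. Their sum went from 1165 ± 16.9 to 745 ± 35.8 and 370 ± 28.9 TP10K in LPLC2, so part of every TP10K value at 96 h APF comes with a smaller share of these genes. With mitochondrial genome and ribosomal protein genes left out of the total, the sum of the members was 201, 310 and 434 per 10000 UMIs at the 3 stages in LPLC2, 258, 352 and 382 in LPLC1, and 310, 299 and 282 in LC4, with the same order of the types at 48 and at 96 h APF.

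Single cells varied widely around these means. In LPLC2 at 96 h APF, the mean over crosses of the lower 10% point, the median and the upper 10% point of the cells' summed level was 187 ± 25.2, 393 ± 25.3 and 546 ± 50.4 TP10K, and at 48 h APF it was 85.2 ± 8.60, 169 ± 11.9 and 230 ± 13.8, so that the 48 h upper point was near the 96 h lower one. In LC4 the 3 points were 106 ± 4.71, 242 ± 14.8 and 363 ± 10.1 at 96 h APF. The complexes varied together from cell to cell. Spearman's rho between the summed levels of complexes I and V, taken within each cross and averaged, was between 0.870 and 0.938 over the 9 groups, a description over cells that share a library, depth and total. The same sums were also correlated with the share of ribosomal protein genes, with a mean rho between 0.524 and 0.828, and with UMIs per cell, between 0.0923 and 0.604, while the rho with the mitochondrial genome was between -0.348 and -0.113. Cells low in the members were thus often low in ribosomal protein transcripts too, and the part of cell quality in this spread was not tested.

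The strains differed little, with 1 exception. Strain 730 had the lowest summed level in 7 of the 7 groups in which it was present, for example 147 TP10K in LPLC2 at 48 h APF against 172 to 184 in the other 5 crosses, and 360 against 382 to 432 at 96 h APF. Strain 730 was among the late crosses, which the study staged and collected in the time window after that of the early ones. By that design the late crosses were on average the younger ones when the brains were dissected. In LPLC2 at 72 h APF the 3 early crosses were at 284 to 301 TP10K and the 3 late ones at 248 to 273, and at 96 h APF at 422 to 432 and 360 to 399, without overlap, but the ranges overlapped at 48 h APF. In LPLC1 early and late crosses overlapped at all 3 stages, for example at 339.8 to 375.1 and 330.5 to 349.2 TP10K at 96 h APF. In LC4 they did not overlap at 72 h APF (268.1 to 271.7 and 249.9 to 258.1), and at 96 h APF the highest cross was a late one, at 269 against 259 to 260. Strain and time of collection cannot be told apart in these crosses.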

How the data were processed

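Dissociated, sorted neurons were profiled by droplet single-cell RNA-seq, 1 pooled library a stage. The authors aligned reads with Cell Ranger to the dm6 genome, assigned cells to DGRP strains by their variants, clustered them with Seurat 5.0.1 and deposited a table of raw UMI counts per gene and cell with type, strain, per-cell UMI and gene counts and the percent of mitochondrial UMIs. Cell types and strains were taken from that annotation. Of the 5674 cells annotated as LPLC2, LPLC1 or LC4, 4939 pass the filter the methods state (10000 to 50000 UMIs and at most 10% mitochondrial UMIs). All were kept, and the filter was an alternative. How doublets were treated beyond the strain assignment is not given in the sources used here.

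Counts were summed per cross, type and stage (50 sums of at least 10 cells each), scaled to 10000 UMIs for levels, and fitted in 1 model over the 9 groups with edgeR 4.0.16 (R 4.3.3; default filter on low counts, TMM factors, robust quasi-likelihood test, Benjamini-Hochberg adjustment over all genes tested, threshold 0.05); the 17 comparisons were 6 stage steps, 9 type comparisons and 2 tests of a difference between types. The edgeR test of a stage step was tried on simulated sums. Alternatives were DESeq2 1.42.0 and its size factors, total UMIs, scaling without mitochondrial genome and ribosomal protein genes, no filter, only the groups compared, the strain as a block, the stated cell filter, cells thinned to 10000 UMIs and leaving out each strain. Crosses of the same strain share a chromosome, not animals, and their deviations correlated with r between 0.0099 and 0.329 (53 of 76 pairs over 0.1).

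The members and lists were chosen with earlier results of these data known. Named genes were the 3 most abundant of each complex, those with the largest changes among the calls of each comparison (in stage steps without overlap), the smallest p of the tests between types and those called against their complex, and for other lists the 2 most abundant; the core subunits were grouped after values were seen. Some symbols of the lists were not matched in the tables and were left out. Positions are from Ensembl 115 on BDGP6. The floor used for ND-B8 covers counting error only.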

Additional observations from a re-analysis of the deposited data

Results flagged for a closer look

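In groups of 4 or 6 crosses, 13 of 153 sets of values held a cross far from the rest by Dixon's criterion, where chance gives about 1 in 20. The sums contain the single genes, so the sets are not independent and this rate is only a guide. Strain 730 was the low cross in 11 of the 13. In LPLC2 at 48 h APF it had 147 TP10K over all members (others 172 to 184), 40.2 for complex I (others 46.4 to 50.1), 58.6 for complex V (others 67.0 to 71.1), 5.91 for COX6B, 5.74 for COX4 and 6.56 for ATPsynG. In LPLC1 at 48 h APF it had 3.08 for ND-ACP, 19.2 for ATPsynC and 8.52 for ATPsynG, and at 96 h APF it had 6.10 for UQCR-14 in LPLC1 and 15.6 for COX4 in LPLC2. The other 2 were UQCR-11 in LPLC1 at 72 h APF, at 2.961 in strain 320 against 2.578 to 2.716, and COX7A in LPLC2 at 96 h APF, at 19.0 in strain 799 against 21.1 to 22.2.

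The change with stage differed between the types by an interaction test for 52 members from 48 to 72 h APF and for 47 from 72 to 96 h APF. The smallest adjusted p-values (edgeR's quasi-likelihood test) were 3.6e-12 for COX7C, 1.98e-11 for ATPsynF and 6.96e-11 for COX8 in the first step, and 2e-08 for ATPsynG, 7.47e-07 for ND-15 and 1e-06 for ND-ACP in the second.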

How the results depend on the processing

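Each type comparison and stage step kept its count of called members within 1.5 times under every alternative, except 3. LPLC2 against LPLC1 at 72 h APF had 35 calls, and 20 with cells thinned to 10000 UMIs. LPLC2 against LPLC1 at 96 h APF had 25, and 13 to 32 with each strain left out. LPLC2 against LC4 at 72 h APF had 17, and 9 to 19 with each strain left out. With strain as a replicate block, LPLC2 had 55 and 51 calls in the 2 steps, and no count moved by over 1.5 times. The 17 counts over all genes moved to between 0.682 and 1.13 of their values.

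Without mitochondrial genome and ribosomal protein genes in the total, the summed level at 48, 72 and 96 h APF was 200.8, 309.7 and 433.9 per 10000 UMIs in LPLC2, 257.8, 352.4 and 382.2 in LPLC1 and 309.8, 299.4 and 282.1 in LC4. As a mean over cells it was 296.6 and 329.3 in LPLC1 at 72 and 96 h APF and 247.5 and 233.0 in LC4 at 48 and 96 h APF. The causes were not tested. For 62 single-gene results, 929 values under alternatives kept direction and call, 43 lost the call and 0 reversed. These results were picked because they were called in the main fit, for a large change or a direction against their complex. The other members were not followed gene by gene.

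Scaling set the split of calls in LPLC1 and LC4, as given beside those results. It also changed the number of calls in LPLC2 from 72 to 96 h APF. Depth limits ND-B8, COX7AL and the 16 members not tested, and LC4 at 72 and 96 h APF rests on 4 crosses. The promoter motif count was not run, since no promoter sequence was used here.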
